A study of Homo sapiens with 6 samples.

Results

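The genes described here encode the actin cytoskeleton and the focal adhesions that anchor it to the membrane. They were chosen by symbol as a list of 51 genes, and every symbol was found as exactly 1 entry among 25737 entries (24462 different symbols) of the count tables. The list holds 20 contractile genes (actins, tropomyosins, myosin chains, calponins, transgelins and related filament proteins), 10 crosslinking genes, 9 adhesion genes and 12 genes whose products bind actin monomers, cap or sever filaments, or belong to the Arp2/3 complex.

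Messenger RNA of 2 established human cell lines was counted by QuantSeq, which reads a tag near the 3′ end of each transcript. A549 is a lung carcinoma epithelial line and BEAS-2B is a line of bronchial epithelial cells, and both carry the genotype label WT. Each line gave 1 untreated library and 1 library each after 48 h with 1 or 5 ng/mL TGF-β1, a cytokine that drives epithelial-mesenchymal transition (EMT) and fibrosis. The treated cells were kept in RPMI1640 with reduced serum, and the medium of the untreated cells is not stated separately in the labels. With 1 library per condition the differences have no replicate check, so no test was run. The range in parentheses after an FC is an exact 95% Clopper-Pearson interval, and this and all other intervals cover counting error only.

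Actin exists as single molecules (monomers) and as filaments, and cells shift between both forms. Tropomyosins, calponins and myosin make filaments stable and contractile, filamins and α-actinins link them to each other, and vinculin, zyxin and talin tie them to integrins. Profilin and β-thymosins hold the monomer pool, and the transcription factor SRF, whose coactivators sense free monomers, binds a DNA element called the CArG box in many of these genes. Stress fibers built from these proteins are a known feature of epithelial cells that undergo EMT.

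The libraries held between 4120624 and 7841350 counts, and the 51 genes took up between 2.87% and 3.37% of them. Defining markers of the labelled cell types were partly absent. In untreated BEAS-2B, EPCAM and the basal cell genes KRT5, KRT14 and TP63 had 0 counts and CDH1 (E-cadherin) had 2, while KRT17 had 247. The summed level of the 5 basal cell markers in BEAS-2B was 53.7, 607 and 738 CPM at 0, 1 and 5 ng/mL, nearly all of it KRT17, which rose to 3006 counts at 5 ng/mL. In untreated A549, the surfactant genes SFTPA1, SFTPA2 and SFTPC had 0 counts and CDH1 had 640, which became 8 at 5 ng/mL. The summed level of 8 alveolar type II markers, these surfactant genes among them, was 17.2, 35.6 and 36.8 CPM in A549 at the 3 doses. Of these 8, 1 gene was called higher in A549 at each dose of TGF-β1. In BEAS-2B the sum was 8.26, 1.53 and 1.23 CPM. The summed level of 10 epithelial markers was 5630, 4950 and 5470 CPM in A549 at the 3 doses, where KRT7 rose and KRT8 and CDH1 fell. In BEAS-2B it was 644, 859 and 821 CPM, where KRT7 rose and 0 fell. Among 8 smooth muscle markers outside the 51 genes, DES, ACTG2 and CASQ2 had 0 counts in all 6 libraries. The summed level of these 8 genes was 30.3, 77.1 and 120 CPM in A549 at the 3 doses, and 39.1, 56.4 and 73.9 CPM in BEAS-2B. The A549 sum joins genes that moved in both directions at 5 ng/mL. MYOCD went from 24 to 307 counts (FC of 9.70, 6.61 to 15.9), SMTN from 24 to 332 and LMOD1 from 4 to 13. MYH11 went from 46 to 21 and SYNPO2 from 36 to 6. Of 8 fibroblast markers, the sum was 7.9, 76.7 and 23.2 CPM in A549 at 0, 1 and 5 ng/mL, with COL1A2 called higher at 1 ng/mL. In BEAS-2B it was 284, 326 and 416 CPM, where THY1 made up most of it (1160 counts in the untreated and 1410 in the 5 ng/mL library) and COL1A2 was called higher at 5 ng/mL. Of 8 endothelial and blood markers, 7 stayed under 10 counts in all 6 libraries, and the summed level of the list was at most 12 CPM. The part of these shifts in the results was not tested. In such bulk samples, fewer cells of a type and less RNA per cell cannot be told apart.

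Differentially expressed genes (DEGs) had to differ by a fold change (FC) of 2 or more, up or down, and to reach an ND value of 7 in either library of the pair. ND stands for log2 of a normalized count with 1 added, and 7 corresponds to a normalized count of 127. At 5 ng/mL TGF-β1, 48 of the 51 genes reached this minimum in A549, and 17 of them rose and 12 fell. The background among all 7115 genes at the minimum was 16.1% higher and 17.1% lower, against 35.4% and 25% of the 48 genes. In BEAS-2B, 50 genes reached the minimum, and 9 rose and 11 fell (18% and 22%), against 7.33% and 11.6% of 6735 genes. At 1 ng/mL, 12 rose and 7 fell in A549 (25% and 14.6%, against 10.9% and 12.6% of 7007 genes), and 7 rose and 6 fell in BEAS-2B (14% and 12%, against 5.66% and 9.13% of 6681 genes). A gene could reach the minimum through its higher library alone, as TAGLN, CAPG and GSN did in A549, so these shares describe the lists and support nothing further. Without the TMM factors, scaled by total counts alone, the split in A549 was 10 to 9 at 1 ng/mL and 12 to 13 at 5 ng/mL, and in BEAS-2B 6 to 10 at 1 ng/mL and 8 to 12 at 5 ng/mL.

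By role, 7 of the 18 contractile genes at the minimum rose and 3 fell in A549 at 5 ng/mL (38.9% and 16.7%), and 5 of 19 rose and 2 fell in BEAS-2B (26.3% and 10.5%). The contractile falls were thus near the shares over all genes, 17.1% and 11.6%. Among the crosslinking genes, 4 of 9 rose and 3 fell in A549 (44.4% and 33.3%) and 3 of 10 rose and 3 fell in BEAS-2B (30% each). Of the 9 adhesion genes, 4 rose and 2 fell in A549 (44.4% and 22.2%), and 1 rose and 2 fell in BEAS-2B (11.1% and 22.2%). Of the 12 monomer-binding and capping genes, 2 rose and 4 fell in A549 (16.7% and 33.3%), and 0 rose and 4 fell in BEAS-2B (33.3%). Over all genes at the minimum, 16.1% rose and 17.1% fell in A549, and 7.33% and 11.6% in BEAS-2B. The adhesion falls in A549, the adhesion rise in BEAS-2B and the monomer-binding and capping rises in A549 were near these shares. The median log2 FC at 5 ng/mL of the contractile genes was 0.87 in A549 and 0.54 in BEAS-2B, and that of the monomer-binding and capping genes was −0.29 and −0.42. Over all 51 genes it was 0.50 and 0.19, beside 0.11 and 0.03 for all genes at the minimum.

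**Figure D1:**
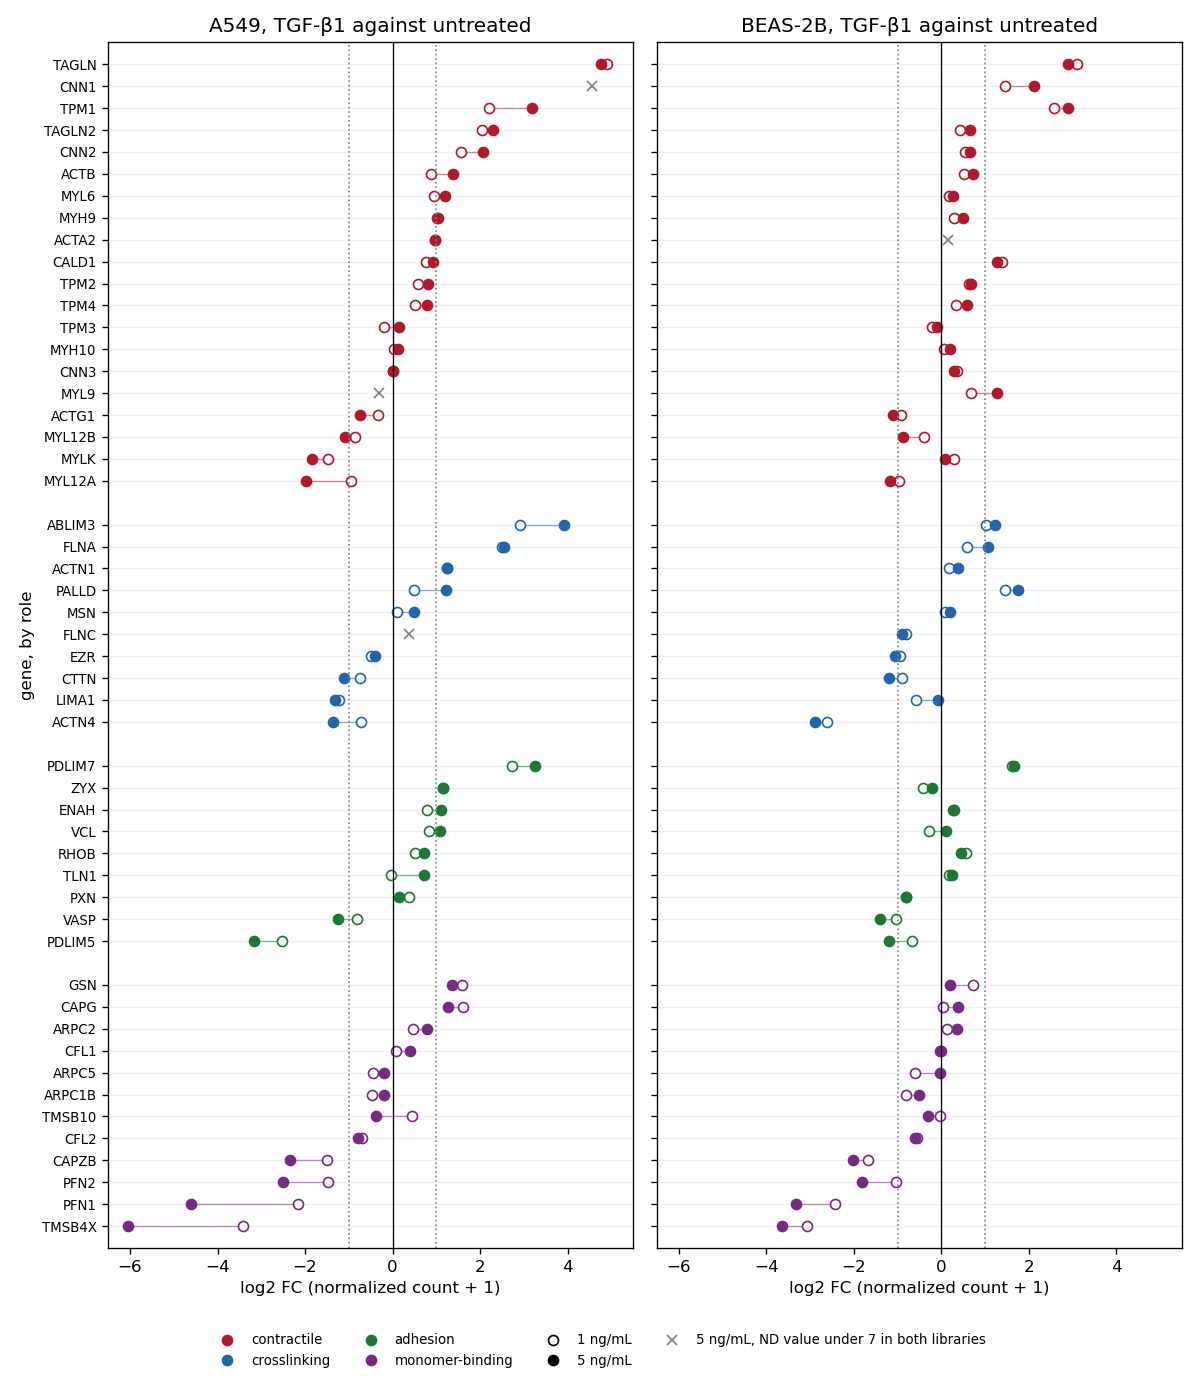
The plot gives the log2 FC (normalized count plus 1, treated against untreated) of the 51 genes by role, with A549 on the left and BEAS-2B on the right, open circles for 1 ng/mL and filled circles for 5 ng/mL TGF-β1, dotted lines at an FC of 2 in either direction, and crosses for genes under the minimum. TAGLN and TPM1 lie far to the right in both cell lines, and TMSB4X and PFN1 lie farthest to the left.

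Across both cell lines at 5 ng/mL, 6 genes rose in both (TAGLN, TPM1, FLNA, PALLD, ABLIM3 and PDLIM7) and 9 fell in both (MYL12A, ACTN4, CTTN, VASP, PDLIM5, PFN1, PFN2, CAPZB and TMSB4X). Over all 5832 genes at the minimum in both lines, 221 were called higher in both (3.79%) and 379 lower in both (6.5%). Another 11 rose in A549 without meeting the criteria in BEAS-2B (ACTB, TAGLN2, MYL6, MYH9, CNN2, ACTN1, VCL, ZYX, ENAH, CAPG and GSN), and 3 fell in A549 without meeting them in BEAS-2B (MYL12B, MYLK and LIMA1). In BEAS-2B without A549, 3 rose (MYL9, CNN1 and CALD1) and 2 fell (ACTG1 and EZR). The remaining 17 met the criteria in neither line, and 0 met them in opposite directions. A heat map in the study, of genes that it chose from these libraries for their change in both lines, carries the labels TPM1, FLNA, PALLD, ABLIM3, PDLIM7, PFN1, ACTN4, CAPZB and CTTN, so the direction of these genes is not independent evidence.

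The promoters were searched for the CArG box, spelled out as CC, then 6 letters that are each A or T, then GG. In the RefSeq promoter windows of GRCh38.p14, from 250 bases before to 50 bases after an annotated start, 45 of the 51 genes were matched with 80 windows. A box stood in 6 of these 80 windows (7.5%), against 1.29% of all 35116 windows of the same length, and these 6 windows belong to 6 genes. They are shown because the box is the binding element of SRF and because the 6 genes differ in how their counts moved. Each stretch is printed 5′ to 3′ in the direction of the gene, 80 bases long, with the box in capitals.
FLNA: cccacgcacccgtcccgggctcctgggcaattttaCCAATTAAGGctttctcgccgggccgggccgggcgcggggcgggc
CNN2: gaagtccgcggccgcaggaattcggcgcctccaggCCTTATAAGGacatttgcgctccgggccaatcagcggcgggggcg
ACTN1: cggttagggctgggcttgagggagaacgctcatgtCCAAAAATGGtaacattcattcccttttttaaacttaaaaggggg
ACTG1: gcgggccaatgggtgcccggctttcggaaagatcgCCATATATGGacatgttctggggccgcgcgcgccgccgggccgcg
MYLK: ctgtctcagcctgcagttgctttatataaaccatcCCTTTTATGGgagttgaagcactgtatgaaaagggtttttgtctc
TPM4: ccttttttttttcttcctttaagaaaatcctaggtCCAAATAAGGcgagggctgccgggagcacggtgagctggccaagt

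The first base of the box lies 94 bases before the start in FLNA, ACTG1 and MYLK, 89 bases before it in CNN2, 171 in ACTN1 and 173 in TPM4. The FLNA stretch spans chrX:154374684-154374763 on the minus strand, that of CNN2 chr19:1026484-1026563 on the plus strand, and that of ACTN1 chr14:68977693-68977772 on the minus strand. The ACTG1 stretch spans chr17:81512849-81512928 and the MYLK stretch chr3:123620598-123620677, both on the minus strand, and the TPM4 stretch chr19:16067330-16067409 on the plus strand. FLNA rose in both lines at 5 ng/mL, CNN2 and ACTN1 rose in A549, ACTG1 fell in BEAS-2B, MYLK fell in A549, and TPM4 met the criteria in neither line. The 6 genes with a box thus included both directions. Of 2 further motifs searched on both strands, CATTCC, bound by TEAD factors, stood in 18.8% of the windows of these genes and in 14% of all windows. TGANTCA, bound by AP-1, stood in 10% and 7.71%. The box overlapped neither of these motifs in any of the 80 windows. A match describes letters in the window and not a bound site.

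The cytoplasmic actins moved apart. ACTB, β-actin, had normalized counts of 6881, 12560 and 18050 in A549 at 0, 1 and 5 ng/mL, and of 6699, 9618 and 11070 in BEAS-2B. It was thus higher at each dose in both lines, with an FC at 5 ng/mL of 2.62 (2.55 to 2.70) in A549 and 1.65 (1.60 to 1.71) in BEAS-2B, which is under the FC criterion. ACTG1, γ-actin, had 40260, 32140 and 24030 in A549 and 39550, 20830 and 18510 in BEAS-2B. It was lower at each dose in both lines, by 1.68-fold (1.65 to 1.70) in A549, which is within the criterion, and by 2.14-fold (2.10 to 2.18) in BEAS-2B. Both genes encode nearly the same protein and share long stretches of sequence, and how the counting divided shared reads is not given in the sources used here. With the counts of both genes summed, the log2 FC at 5 ng/mL was −0.16 in A549 and −0.64 in BEAS-2B, so that the rise of ACTB in A549 and the fall of ACTG1 in BEAS-2B were no longer met by the sum.

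ACTA2, smooth muscle α-actin and a common marker of myofibroblasts, had normalized counts of 161, 315 and 318.5 in A549 and of 70.3, 77.6 and 78.1 in BEAS-2B. In A549 the FC at 5 ng/mL was 1.97 (1.62 to 2.42), just under the criterion, and it passed with upper quartile factors (log2 FC of 1.01). In BEAS-2B the FC was 1.11 (0.77 to 1.60) with an interval that holds 1, and the gene stayed under the minimum. The marker of myofibroblasts therefore met the DEG criteria in neither line.

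TAGLN, transgelin or SM22α, an actin-binding protein of smooth muscle, stood at 27.8, 855 and 783 normalized counts in A549 and at 232, 2010 and 1726 in BEAS-2B. Nearly all of its rise was present at 1 ng/mL, and the 5 ng/mL library lay below the 1 ng/mL library in both lines. The FC at 5 ng/mL was 27.2 (18.8 to 44.2) in A549, from 24 raw counts, and 7.41 (6.42 to 8.65) in BEAS-2B. TAGLN2, its homolog in non-muscle cells, had 2346, 9661 and 11510 normalized counts in A549 and 5247, 7086 and 8219 in BEAS-2B. It rose 4.90-fold (4.68 to 5.14) in A549, while its FC in BEAS-2B was 1.57 (1.51 to 1.63).

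TPM1, a tropomyosin that winds along filaments and guards them against severing, had 3641, 16780 and 33010 normalized counts in A549 and 3336, 19880 and 24860 in BEAS-2B. Both lines started from a like level, and the gene rose 9.06-fold (8.74 to 9.40) and 7.45-fold (7.17 to 7.75) at 5 ng/mL. The other tropomyosins did not reach an FC of 2. TPM2 had an FC at 5 ng/mL of 1.76 and 1.60 in A549 and BEAS-2B, TPM4 one of 1.71 and 1.501, and TPM3 one of 1.10 in A549, while TPM3 was 1.08-fold lower (0.99 to 1.17) in BEAS-2B. Up to 6.46% as many counts as TPM3 itself lay in the named pseudogene TPM3P9.

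The calponins bind actin and tropomyosin and slow the myosin motor. CNN1, the smooth muscle form, had 0, 14.4 and 22.7 normalized counts in A549, all under the minimum. Set against the 3 counts that a count of 0 allows, the 25 raw counts at 5 ng/mL were 6.53-fold higher, and the exact interval of the FC began at 4.925. In BEAS-2B it had 48.0, 133 and 212 normalized counts and rose 4.34-fold (3.14 to 6.32), reaching the minimum in the treated libraries. CNN2 had 521, 1535 and 2178 in A549, where it rose 4.17-fold (3.78 to 4.63), and 1371, 1993 and 2158 in BEAS-2B, where the FC was 1.57 (1.46 to 1.70). CNN3 had an FC of 1.01 (0.85 to 1.21) in A549 and 1.22 (1.04 to 1.42) in BEAS-2B. CALD1, caldesmon, had 2435, 6398 and 5856 in BEAS-2B and rose 2.40-fold (2.29 to 2.53) there, with an FC of 1.91 (1.81 to 2.02) in A549.

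The myosin chains did not move as 1 group. MYL9, the regulatory light chain of smooth muscle myosin, had 6.95, 37.1 and 5.44 normalized counts in A549, all under the minimum, and 846, 1355 and 2037 in BEAS-2B, where it rose 2.41-fold (2.21 to 2.63). MYL12A, a regulatory light chain of non-muscle myosin, had 1125, 581 and 286 in A549 and 866, 441 and 380 in BEAS-2B. It fell 3.93-fold (3.46 to 4.48) and 2.27-fold (1.99 to 2.61) at 5 ng/mL. Its near-identical neighbor MYL12B fell 2.12-fold (1.92 to 2.36) in A549 and was 1.83-fold lower (1.62 to 2.06) in BEAS-2B. The shared sequence of both genes leaves the division of their reads uncertain. With both genes summed, the log2 FC of the sum was −1.46 in A549 and −1.01 in BEAS-2B.

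MYLK, the kinase that switches on these light chains, had 758, 273 and 210 normalized counts in A549 and 1234, 1499 and 1310 in BEAS-2B. It fell 3.60-fold (3.11 to 4.22) in A549, while in BEAS-2B its FC was 1.06 (0.975 to 1.16). In A549, the heavy chain MYH9 rose 2.04-fold (1.90 to 2.18) and the light chain MYL6 rose 2.31-fold (2.19 to 2.42). Their FC in BEAS-2B was 1.41 and 1.20. The heavy chain MYH10 had an FC of 1.10 (0.99 to 1.22) in A549 and 1.15 (1.046 to 1.26) in BEAS-2B. The A549 calls of MYH9 and MYL6 ended under total counts, and that of MYH9 also in thinned libraries and with the GC trend removed.

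**Figure D2:**
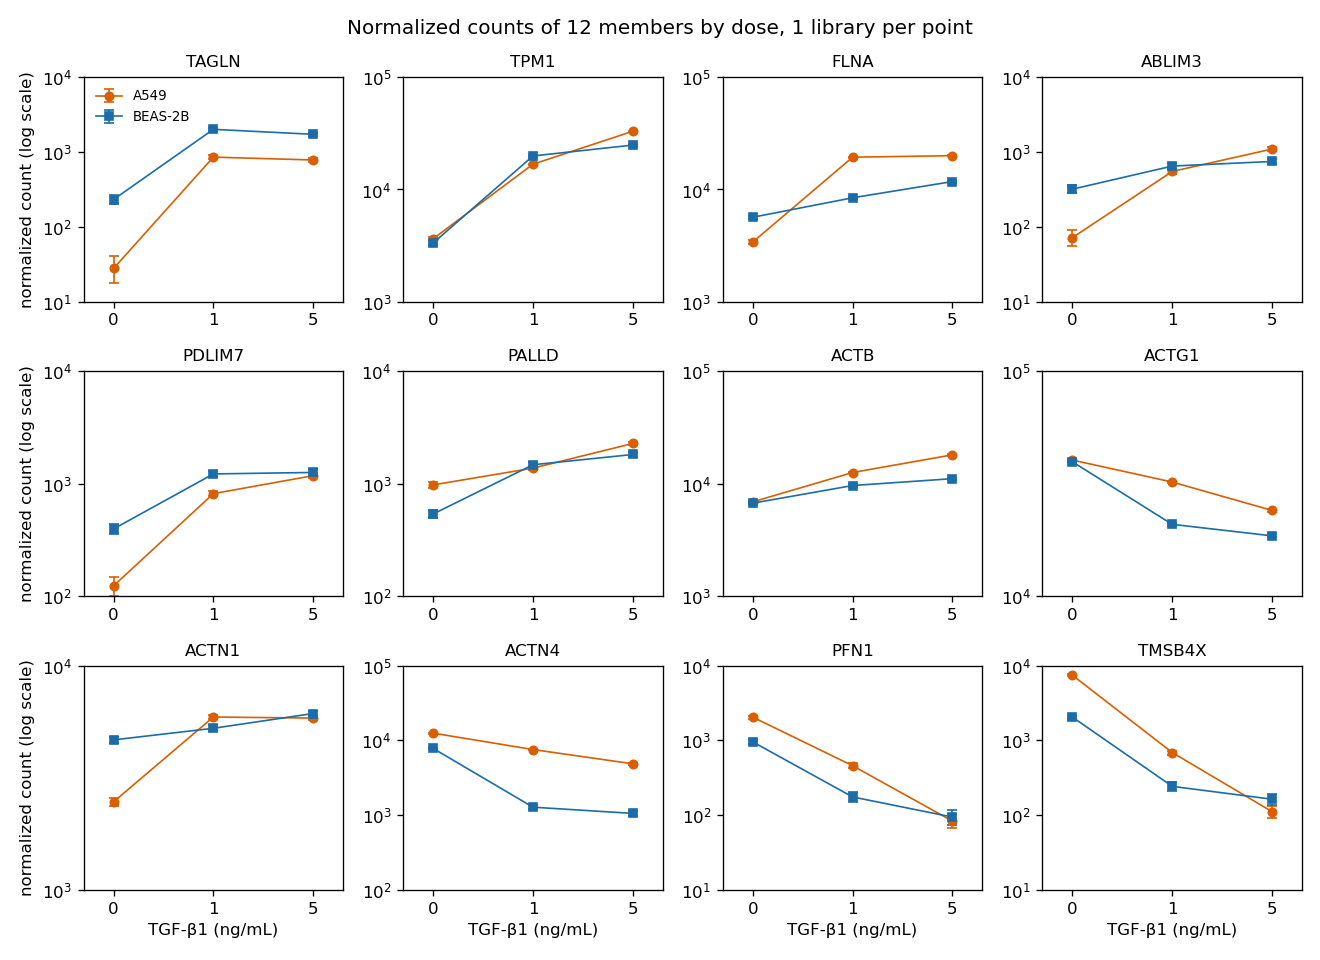
The plot gives normalized counts on a log scale for 12 of the genes at 0, 1 and 5 ng/mL TGF-β1 in A549 (circles) and BEAS-2B (squares), 1 library per point, with error bars for 95% Poisson intervals of the count. TPM1 rose from 3641 to 33010 in A549 and from 3336 to 24860 in BEAS-2B, while TMSB4X fell from 7421 to 112 and from 2047 to 164.

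Among the crosslinking genes, FLNA, filamin A, which joins filaments into networks and links them to the membrane, had 3402, 19380 and 20000 normalized counts in A549 and 5655, 8429 and 11760 in BEAS-2B. Nearly all of the rise in A549 was present at 1 ng/mL, while the BEAS-2B libraries stepped up at both doses. The FC at 5 ng/mL was 5.88 (5.66 to 6.11) in A549 and 2.08 (2.01 to 2.15) in BEAS-2B. The BEAS-2B call was near the criterion and ended under total counts (log2 FC of 0.93) and with the GC trend removed (0.92). FLNC, the muscle filamin, was nearly undetected in A549 and had 139, 78.8 and 74.3 normalized counts in BEAS-2B, a 1.86-fold (1.37 to 2.60) lower value at 5 ng/mL.

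The α-actinins, which bundle filaments in parallel, moved apart like the actins. ACTN4 had 12500, 7547 and 4867 normalized counts in A549 and 7808, 1281 and 1058 in BEAS-2B. It fell 2.57-fold (2.48 to 2.65) in A549 and 7.37-fold (6.87 to 7.94) in BEAS-2B, where most of the fall was present at 1 ng/mL. ACTN1 rose 2.36-fold (2.25 to 2.48) in A549 and had an FC of 1.31 (1.26 to 1.37) in BEAS-2B.

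PALLD, palladin, a scaffold of stress fibers, had 974, 1374 and 2279 normalized counts in A549 and 537, 1473 and 1818 in BEAS-2B. It rose 2.34-fold (2.16 to 2.53) and 3.38-fold (3.05 to 3.76). ABLIM3, an actin-binding LIM protein, had 71.8, 550 and 1097 in A549 and 319, 649 and 748 in BEAS-2B. It rose 15.1-fold (11.8 to 20.04) in A549 and 2.34-fold (2.03 to 2.71) in BEAS-2B, so that the A549 level went from below to above that of BEAS-2B.

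CTTN, cortactin, which stabilizes branched filaments at the cell edge, had 984, 585 and 455 normalized counts in A549 and 1313, 706 and 573 in BEAS-2B. It fell by a like amount in both lines, 2.16-fold (1.94 to 2.42) and 2.29-fold (2.05 to 2.56). LIMA1, which bundles filaments in epithelial cells, fell 2.49-fold (1.91 to 3.32) in A549 and was 1.052-fold lower (0.94 to 1.18) in BEAS-2B. EZR, ezrin, which fastens filaments to the apical membrane, fell 2.08-fold (1.91 to 2.27) in BEAS-2B and was 1.32-fold lower (1.21 to 1.44) in A549. Its relative MSN, moesin, had an FC of 1.41 (1.33 to 1.496) and 1.14 (1.055 to 1.23).

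Among the adhesion genes, 2 of the same PDZ and LIM domain family went opposite ways. PDLIM7, which docks on tropomyosin-coated filaments, had 123, 814 and 1177 normalized counts in A549 and 395, 1220 and 1258 in BEAS-2B. It rose 9.51-fold (7.86 to 11.8) and 3.18-fold (2.82 to 3.61). PDLIM5 had 2258, 392 and 250 in A549 and 298, 187 and 130 in BEAS-2B. It fell 9.02-fold (7.97 to 10.3) in A549 and 2.29-fold (1.82 to 2.91) in BEAS-2B, from an untreated level that was 7.56 times as high in A549.

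VASP, which elongates filaments at their growing ends, had 535, 302 and 223 normalized counts in A549 and 296, 144 and 111 in BEAS-2B. It fell 2.39-fold (2.05 to 2.81) and 2.65-fold (2.09 to 3.43). Its relative ENAH (Mena) rose 2.15-fold (1.99 to 2.32) in A549 and had an FC of 1.21 (1.12 to 1.29) in BEAS-2B. The core components of the adhesion plaque differed between the lines. In A549, VCL (vinculin) rose 2.12-fold (1.95 to 2.31) and ZYX (zyxin) rose 2.21-fold (1.98 to 2.49), though total counts ended the A549 calls of VCL, ZYX and ENAH. In BEAS-2B, VCL had an FC of 1.07 (0.95 to 1.21) and ZYX was 1.15-fold lower (1.06 to 1.26).

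TLN1, talin, which couples integrins to actin, had an FC of 1.65 in A549 and 1.18 in BEAS-2B. PXN, paxillin, an adaptor of the plaque, had an FC of 1.10 (0.96 to 1.27) in A549 and was 1.76-fold lower (1.59 to 1.97) in BEAS-2B. RHOB, a small GTPase, had an FC of 1.66 and 1.36. These 3 genes met the criteria in neither line.

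The genes that handle monomers held the largest falls of the list. TMSB4X, thymosin β4, the main protein that sequesters actin monomers, had 7421, 688 and 112 normalized counts in A549 and 2047, 243 and 164 in BEAS-2B. It fell 65.9-fold (55.6 to 80.2) in A549 and 12.4-fold (10.5 to 15.1) in BEAS-2B. PFN1, profilin 1, which feeds monomers to growing ends, had 2044, 459 and 83.5 in A549 and 955, 176 and 94.5 in BEAS-2B. It fell 24.2-fold (19.9 to 30.5) and 10.0-fold (7.97 to 13.0). At 5 ng/mL, PFN1 had come down to a similar normalized count in the 2 cell lines. TMSB4X had come down to a lower one in A549 than in BEAS-2B, beyond counting error. The untreated A549 level had been 3.62 times (TMSB4X) and 2.14 times (PFN1) as high as that of BEAS-2B. Up to 6.67% as many counts as PFN1 itself lay in the named pseudogene PFN1P2, at most 9 counts. With that pseudogene summed, the log2 FC of PFN1 in BEAS-2B at 5 ng/mL was −3.25, beside −3.32 without it.

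PFN2, profilin 2, had 867, 313 and 152 normalized counts in A549 and 462, 223 and 130 in BEAS-2B, and it fell 5.69-fold (4.83 to 6.81) and 3.54-fold (2.86 to 4.46). CAPZB, the β subunit of the capping protein that closes filament ends, had 3139, 1104 and 619 in A549 and 4278, 1341 and 1062 in BEAS-2B. It fell 5.07-fold (4.66 to 5.53) and 4.03-fold (3.74 to 4.34). Thus both profilins, the capping subunit and thymosin β4 were each lower at 1 than at 0 ng/mL, and lower at 5 than at 1 ng/mL, in both lines.

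The other genes of this role did not meet the criteria for a fall in either line. TMSB10, thymosin β10, had 12550, 17170 and 9591 normalized counts in A549 and 11350, 11040 and 9119 in BEAS-2B, and was 1.31-fold (1.27 to 1.34) and 1.24-fold (1.21 to 1.28) lower at 5 ng/mL. CFL1, cofilin 1, which severs filaments, had an FC of 1.33 (1.28 to 1.37) in A549 and was 1.01-fold lower (0.972 to 1.055) in BEAS-2B. CFL2 was 1.74-fold and 1.53-fold lower, and it too had a lower value at each dose in both lines. Its step from 1 to 5 ng/mL lay within counting error in both. Of the Arp2/3 subunits, which start branched filaments, ARPC2 had an FC of 1.72 and 1.28, and ARPC1B and ARPC5 were between 1.02-fold and 1.43-fold lower. None of these 6 genes met the criteria. The genes of the gelsolin family of capping proteins, CAPG and GSN, rose 2.39-fold (1.90 to 3.07) and 2.57-fold (1.99 to 3.40) in A549. They had an FC of 1.30 and 1.15 in BEAS-2B.

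Between the doses, the step from 1 to 5 ng/mL was given directly, since both doses share their untreated library. In A549, 4 of 47 genes at the minimum were called lower at 5 than at 1 ng/mL and 0 were called higher, against 1.79% and 1.61% of 6467 genes. The 4 were TMSB4X (6.12-fold lower, 5.11 to 7.50), PFN1 (5.45-fold, 4.42 to 6.91), PFN2 (2.06-fold, 1.73 to 2.48) and MYL12A (2.03-fold, 1.78 to 2.32). The largest steps up in A549 were ABLIM3 (FC of 1.99, 1.82 to 2.19) and TPM1 (1.97, 1.94 to 2.0), both at the edge of the criterion. In BEAS-2B, 0 of 49 genes were called in either direction, against 0.492% higher and 0.412% lower of 6306 genes. Over the 3 doses, 21 of the 48 genes at the minimum had a higher value at each step in A549, 14 a lower value at each step, and 13 a value that turned. In BEAS-2B these were 20, 16 and 14 of 50. The order was not counted over all genes, so these numbers describe the list only. Some of the steps lay within counting error, as from 1 to 5 ng/mL for ACTA2, MYH10 and CNN3 in A549. The step call of MYL12A ended under 6 of the 12 alternatives.

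Of 47 genes that reached the minimum in both lines at 5 ng/mL, 42 had a log2 FC of the same sign in both (89.4%, beside 73.4% of 5832 genes). The list was chosen with earlier results of these data known, so this share describes the list and supports nothing further. The 5 with opposite signs were ZYX, MYLK, PXN, TPM3 and CFL1. The difference of log2 FC, A549 minus BEAS-2B, was larger than counting error for 27 genes in the positive and 11 in the negative direction, and within it for 9. It was 2.69 (2.27 to 3.11) for ABLIM3, 1.88 (1.26 to 2.49) for TAGLN, 1.65 (1.56 to 1.73) for TAGLN2, 1.52 (1.41 to 1.64) for ACTN4 and 1.5 (1.43 to 1.57) for FLNA. On the other side it was −2.41 (−2.77 to −2.04) for TMSB4X, −1.98 (−2.36 to −1.61) for PDLIM5 and −1.94 (−2.18 to −1.69) for MYLK. For TPM1 it was 0.28 (0.21 to 0.36), a small gap beside a log2 FC of 3.18 in A549. Without a second library per condition, these differences cannot be told apart from the variation between cultures. The split into 27, 11 and 9 was not counted over all 5832 genes, and counting intervals are narrow for genes with high counts. It therefore describes the list only.

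**Figure D3:**
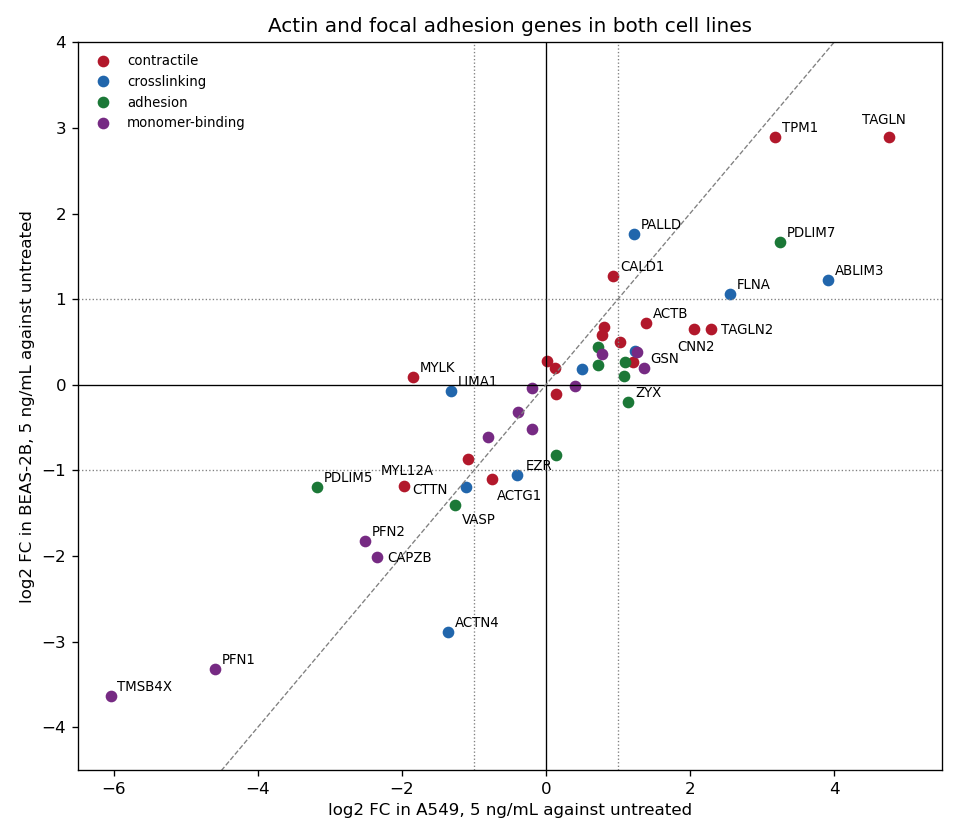
The plot sets the log2 FC at 5 ng/mL TGF-β1 in BEAS-2B against that in A549, 1 point per gene for the 47 genes at the minimum in both lines, with dotted lines at an FC of 2 in either direction and a dashed line of equal values. Points at the upper right are the 6 genes that rose in both lines, points at the lower left the 9 that fell in both, and MYLK and ZYX lie near the horizontal axis on opposite sides.

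Before treatment, the lines already differed. In untreated A549, 13 of 50 genes were called lower and 4 called higher than in untreated BEAS-2B (26% and 8%, against 18.9% and 18.1% of 7329 genes). MYL9 was 106.5-fold lower in A549 (55.6 to 332.5), on 6 raw counts, TAGLN was 8.09-fold lower (5.46 to 13.3), CAPG 7.89-fold (6.42 to 9.95) and ABLIM3 4.39-fold (3.36 to 5.94). FLNC was at 1 raw count in A549. The 4 higher genes in A549 were PDLIM5 (7.56-fold), TMSB4X (3.62-fold), ACTA2 (2.27-fold) and PFN1 (2.14-fold). TPM1, ACTB and ACTG1 started close to equal, with an FC of 1.09, 1.03 and 1.02. The untreated A549 library enters both this comparison and each FC of A549, so a low count in it moves both values.

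Within 1 library, the ratio of 2 genes does not depend on the scaling. For ACTB to ACTG1 and MYL12A to MYL12B it does depend on how shared reads were divided, which the intervals do not cover. Pairs of members were formed after their values were seen, and their change is a description. The ratio of ACTB to ACTG1 at 5 ng/mL became 4.39 times (4.25 to 4.54) its untreated value in A549 and 3.53 times (3.40 to 3.67) in BEAS-2B. The ratio of ACTN1 to ACTN4 became 6.06 times (5.72 to 6.43) and 9.67 times (8.91 to 10.5) its untreated value, and that of TPM1 to TPM3 8.20 times (7.52 to 8.94) and 8.02 times (7.33 to 8.78). The ratio of PDLIM7 to PDLIM5 became 86.7 times (68.6 to 110) its untreated value in A549, the largest change of the 12 pairs there, and 7.32 times (5.65 to 9.47) in BEAS-2B, where 4 pairs changed more. That of TMSB10 to TMSB4X became 50.8 times (42.5 to 60.9) and 10.0 times (8.39 to 12.03). That of CFL1 to PFN1 became 32.5 times (26.3 to 40.2) and 9.98 times (7.85 to 12.7). In each of these 6 pairs the ratio moved the same way in both lines, and it was farther from the untreated value at 5 than at 1 ng/mL. Among the 12 pairs, others did not show this order of doses. The ratio of TPM2 to TPM3 was 1.72 and 1.59 times its untreated value at 1 and 5 ng/mL in A549, and 1.80 and 1.72 times in BEAS-2B. That of MYH9 to MYH10 was 1.99 and 1.855 times in A549, and that of MYL12A to MYL12B 0.67 and 0.80 times in BEAS-2B.

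**Figure D4:**
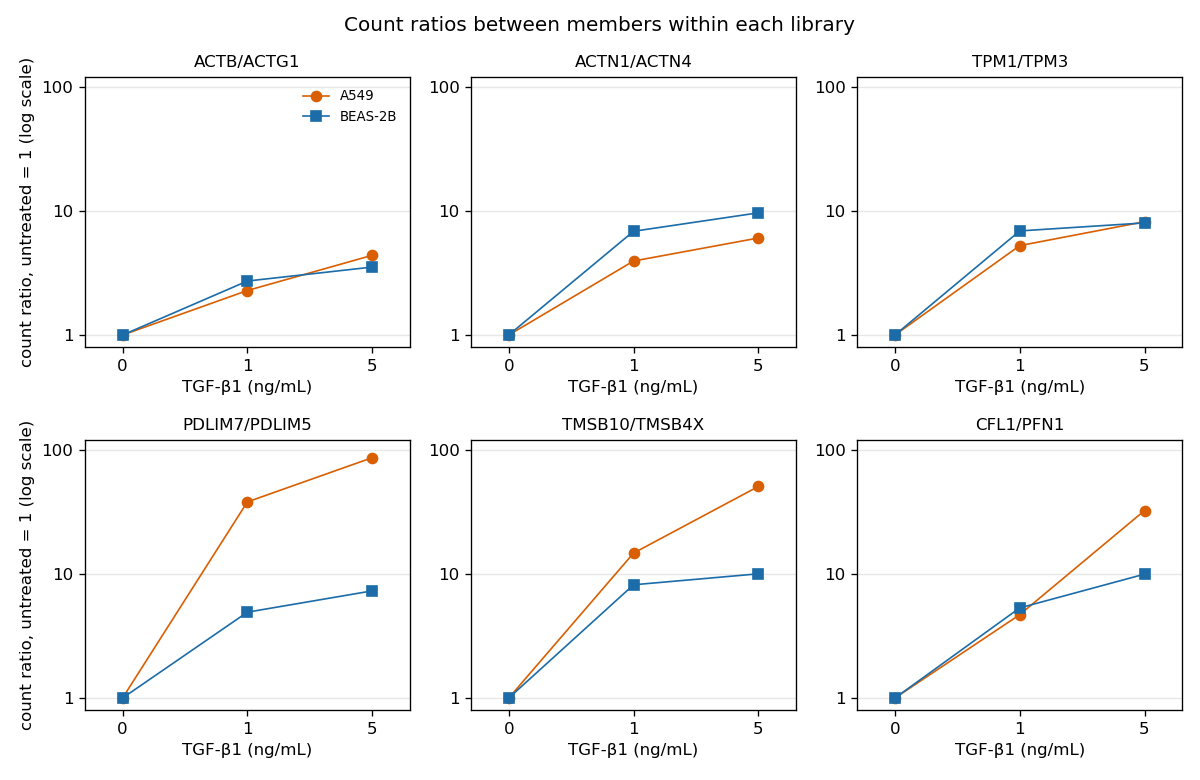
The plot gives, for 6 pairs of genes, the ratio of their raw counts within each library divided by the ratio in the untreated library, on a log scale, at 0, 1 and 5 ng/mL TGF-β1 in A549 (circles) and BEAS-2B (squares). All ratios lie above 1 at both doses, and the gap between the lines is widest for PDLIM7 to PDLIM5, at 86.7 in A549 and 7.32 in BEAS-2B.

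The 6 genes that rose in both lines had a median transcript GC content of 54.8% (44.1% to 64.6%), and the 9 that fell in both had 53.0% (40.3% to 59.4%). Over all genes the corresponding medians were 55.8% for 221 genes higher in both and 48.0% for 379 lower in both, with 49.0% for all 5832 genes at the minimum in both. With the GC trend removed, 26 of the 29 calls in A549 and 19 of the 20 in BEAS-2B at 5 ng/mL remained. The calls lost were MYH9, ZYX and CAPG in A549 and FLNA in BEAS-2B. The calls gained were ACTG1 (lower) and CALD1 (higher) in A549 and FLNC (lower) in BEAS-2B. In that setting ACTG1 was thus called lower and CALD1 higher in both lines.

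A further list of 87 actin and adhesion genes outside the 51 was counted in the same way. In A549 at 5 ng/mL, 18 rose and 6 fell of 72 at the minimum (25% and 8.33%, against 16.1% and 17.1% of all genes). In BEAS-2B, 9 rose and 7 fell of 68 (13.2% and 10.3%, against 7.33% and 11.6%), a share of falls near that of all genes. Those that rose in both lines were FERMT1 (5.60-fold in A549 and 3.48-fold in BEAS-2B), which activates integrins, TNS1 (9.19-fold and 4.01-fold), which ties adhesions to filaments, SMTN (10.5-fold and 3.25-fold), a smooth muscle filament protein, FHL3 (4.56-fold and 3.47-fold) and MICAL2 (3.38-fold and 4.10-fold), which oxidizes actin and is also labelled in the study's heat map. Those that fell in both were LASP1 (4.92-fold and 4.47-fold), ARPC3 (2.66-fold and 2.79-fold), a subunit of Arp2/3, and ARPC5L (2.05-fold and 2.12-fold). SRF itself had 544.5 normalized counts in untreated A549 and 317.5 at 5 ng/mL, 1.71-fold lower, and it fell 3.20-fold in BEAS-2B from 1689 to 528. Its coactivator MKL1 (MRTFA) rose 3.77-fold (2.97 to 4.90) in A549 and was 1.02-fold lower in BEAS-2B. MKL2 (MRTFB) rose 2.24-fold (1.69 to 3.07) in A549 and stayed under the minimum in BEAS-2B.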

How the data were processed

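Counts of 6 libraries, 1 for each of 6 conditions, were used. The authors deposited unnormalized whole-number counts of reads for each gene. The submitters' processing notes name Bowtie2, bedtools and the build hg19, and the study's methods name ExDEGA, with no versions or roles given in the sources used here. Promoter windows are of GRCh38.p14, and no coordinates were carried between builds. Samples were grouped by their labels.

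TMM factors came from edgeR 4.0.16 under R 4.3.3 over the 6 libraries. Each count was brought to the mean effective library size of 5131350 (normalized count), and the FC used a pseudocount of 1. The DEG thresholds follow the study's methods, with the ND minimum required in at least 1 library. How the study scaled its ND value is not stated there, and a normalized count of 127 was 24.75 CPM here. In each line, more genes met the criteria at 5 ng/mL than the study reports. In A549 1146 rose and 1220 fell, and in BEAS-2B 494 and 783. With an ND value of log2(CPM + 1), these were 449 and 293, and 159 and 183, closer to the study's numbers. The remaining steps ran in Python 3.11.15 (pandas 2.3.3, numpy 2.4.6, scipy 1.17.1), and figures in matplotlib 3.10.9. Transcript GC content came from GENCODE v29 and was known for 9419 of 9848 expressed genes. The steps were tested on simulated data. Differences of log2 FC and pair ratios carry 95% normal approximations of counting error.

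The members and lists were chosen with earlier results of these data known. Full values were given for 7 fixed genes (ACTA2, ACTB, ACTG1, TAGLN, TPM1, CNN1 and MYL9), for those meeting the criteria in both lines, and for those meeting them in 1 line with an FC of at least 4. Other values named were chosen after they were seen. The alternatives numbered 12, with DESeq2 1.42.0 among the scalings. No promoter window was matched for ACTB, TAGLN, MYL9, CTTN, PFN2 and ARPC1B.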

Additional observations from a re-analysis of the deposited data

Results flagged for a closer look

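ZYX, which encodes the focal adhesion protein zyxin, moved in opposite directions in the cell lines at both doses beyond counting error. Its normalized counts were 462, 1032 and 1024 in A549 and 1321, 985 and 1145 in BEAS-2B at 0, 1 and 5 ng/mL TGF-β1. At 5 ng/mL the log2 FC was 1.15 in A549 and −0.21 in BEAS-2B, and the former minus the latter was 1.35. The BEAS-2B value did not meet the FC criterion. With 1 library per condition, the difference was not tested.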

How the results depend on the processing

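Named genes had 1056 log2 FC values under the 12 alternatives. The ND minimum in both libraries and the ND value on the CPM scale leave the log2 FC unchanged, so those values could not move. Summed copies could move only genes with a named pseudogene or a near-identical paralog. Total counts moved 43 of 88 values beyond their counting interval, and removal of the GC trend moved 37 of 88. Over all 12 alternatives, 950 stayed within their counting interval and the others moved beyond it. Of the latter, 4 changed sign, those of ACTB with near-identical copies summed, which were −0.08 and −0.16 in A549 at 1 and 5 ng/mL and −0.60 and −0.64 in BEAS-2B. Total counts shifted the median log2 FC of all genes from 0.09, 0.11, 0.01 and 0.03 (A549 1 and 5, BEAS-2B 1 and 5 ng/mL) to −0.10, −0.14, −0.13 and −0.12. The median of the 51 genes became 0.31 and 0.29 in A549 at 1 and 5 ng/mL and 0.059 in BEAS-2B at 5 ng/mL, and in BEAS-2B at 1 ng/mL it changed sign, from 0.08 to −0.05, and the falls in BEAS-2B at 1 ng/mL became 10. With the GC trend removed, the median in A549 was 0.26 at 1 and 0.35 at 5 ng/mL. With the ND minimum in both libraries, 7 genes rose in A549 at 1 ng/mL and 7 were lower in untreated A549 than in untreated BEAS-2B. That setting also ended the A549 calls at 5 ng/mL of TAGLN, LIMA1, ABLIM3, PDLIM7, PFN1, CAPG, TMSB4X and GSN and the BEAS-2B calls of CNN1, VASP and PFN1, since 1 library of each lay under it. The ND value on the CPM scale ended the calls at 5 ng/mL of LIMA1, VASP, CAPG and GSN in A549 and of CNN1, VASP, PDLIM5 and PFN2 in BEAS-2B, and upper quartile factors ended that of EZR in BEAS-2B. In the A549 dose step, the genes called higher numbered 2 with DESeq2 size factors and with upper quartile factors (TPM1 and ABLIM3), and 1 each with TMM within each cell line, the filter of 10 counts and thinned libraries. The genes called lower numbered 2 with the minimum in both libraries and 1 when the ND value was taken as log2(CPM + 1). The other counts stayed within 1.5 times. Except where stated, the cause was not tested. No paired analysis was possible because each condition had 1 library, and no replicate could be left out. CNN1, MYL9 and FLNC had 0 to 54 raw counts in A549, and their intervals there are wide.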
